A study of Mus musculus with 6 samples.

Results

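Il18rap and the interleukin-1 (IL-1) receptor family were followed in bulk RNA-seq of mouse primary myoblasts, the cultured progenitors of muscle. The set holds 9 of the 54532 genes in the deposited count table: 7 receptor chains (Il18rap, Il18r1, Il1rl1, Il1rl2, Il1r1, Il1r2 and Il1rap) and 2 ligands (Il18 and Il33). They were found by gene symbol, and all 9 had at least 1 read. Of these, 8 passed the filter on low counts, out of 14679 genes that passed it in the whole table, and Il18r1 did not. Il18rap was selected on its adjusted p in the comparison of libraries labelled eIF5A-KO with WT, the same comparison that is described here, so its values in that comparison are a description and support nothing by themselves. The other 8 genes were chosen because they belong to the same receptor family or are its ligands, with the results of that comparison already known.

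The cells came from digested hind-limb muscle of 3-week-old mice, and 6 libraries were sequenced, 3 labelled WT and 3 labelled eIF5A-KO. In the knockout, a tamoxifen-inducible Cre driven from the Pax7 locus (Pax7CreERT2/+) acts on floxed eIF5A alleles (eIF5A f/f), so that deletion is limited to cells that express Pax7, the satellite cells of muscle and their progeny. WT cells are described as coming from littermates. Their genotype is not stated for these libraries, and controls elsewhere in the study are given as Pax7CreERT2/+ or as Pax7+/+ with eIF5A f/f. Both groups were grown in medium with fetal bovine serum and FGF at a stated 10 ug/ml, and RNA was taken at day 2. No sorting step is described for these cells, so other cells of the digest may be present. Neither the labels nor the methods say whether the libraries of a group came from separate animals or cultures, so p-values measure only the spread between these libraries.

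Receptors of this family work in pairs. A ligand-binding chain takes up the cytokine and recruits an accessory chain, and the paired intracellular TIR domains pass the signal through MyD88 and IRAK kinases to NF-kB and MAP kinases. IL18RAP is the accessory chain of the IL-18 receptor and IL18R1 its binding chain, a pair best known from NK and T cells, in which IL-18 drives interferon gamma. IL1RAP is the accessory chain shared by the IL-1, IL-33 and IL-36 receptors, and IL-33 is a nuclear alarmin that is released from damaged stromal cells.

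Total counts lay between 16281216 and 17734551 per library, and 1 read corresponded to 0.053 to 0.0646 CPM (reads scaled to the library total with TMM factors). Mitochondrial transcripts took 5.75% of counts in WT 1 and 2.11% to 3.5% in the other 5 libraries. The targeted gene, Eif5a (ENSMUSG00000078812, chr11:69916714-69921958, minus strand), was at 1603, 986 and 1238 CPM in WT 1 to 3 and at 1364, 1459 and 1059 CPM in the libraries labelled eIF5A-KO 1 to 3. Between the groups it differed by 0.02 on the log2 scale (interval at 95% from -0.51 to 0.55, edgeR adjusted p = 0.993), and directions below refer to the labels. Reads were summed per gene, so a loss limited to the floxed exons would lower this value only by their share of the reads. That share is not known and reads per exon were not examined, so the value does not check the labels. Myogenic markers were present in every library, beside markers of other cell types. The 11 myogenic markers summed to 685 to 1790 CPM in WT and to 692 to 1230 CPM in the libraries labelled eIF5A-KO. In every library the sum of 8 endothelial markers was higher (1200 to 2590 and 2110 to 3230 CPM). So was that of 10 markers of fibro-adipogenic progenitors (2890 to 3690 and 2860 to 3400 CPM). Levels below are those of the whole culture, and shares of cell types were not measured. Myod1, the myogenic determination factor, was at 264 to 550 CPM in WT and 196 to 349 CPM in the libraries labelled eIF5A-KO. The satellite cell factor Pax7 was at 12.9, 51.7 and 25.2 CPM in WT and at 13.0, 8.29 and 10.6 CPM in the libraries labelled eIF5A-KO.

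Il18rap (ENSMUSG00000026068) lies on the plus strand at chr1:40515362-40551705 (mm10, the build named by the authors, equal to GRCm38), with 4 annotated transcripts of up to 13 exons. It is the last of 6 family genes that follow one another on the plus strand, Il1r2, Il1r1, Il1rl2, Il1rl1, Il18r1 and Il18rap, from 40074079 to 40551705 on chromosome 1, over 477.6 kb. Il1rap lies at chr16:26581704-26730117, Il18 at chr9:50554827-50581840 and Il33 at chr19:29925114-29960718. The end of Il1rl1 and the start of Il18r1 are only 136 bases apart, whereas 14507 bases separate Il18r1 from Il18rap. Because 3 neighbours with very different levels share this stretch, the sequences before their start sites are given, 5′ to 3′ on the plus strand of GRCm38.p6, with the start sites of RefSeq and with the E-box motif CANNTG in capitals. The motif, which myogenic bHLH factors can bind, reads the same way on both strands. The window of Il18rap is chr1:40515112-40515361, that of Il1rl1 is chr1:40429320-40429569, and for Il18r1 the whole gap after Il1rl1, chr1:40465416-40465551, is shown.
Il18rap: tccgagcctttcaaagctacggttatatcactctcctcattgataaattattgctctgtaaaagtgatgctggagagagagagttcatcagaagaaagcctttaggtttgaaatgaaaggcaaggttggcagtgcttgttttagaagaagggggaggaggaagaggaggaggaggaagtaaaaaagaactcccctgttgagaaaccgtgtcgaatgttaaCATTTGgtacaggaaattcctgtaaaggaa
Il18r1: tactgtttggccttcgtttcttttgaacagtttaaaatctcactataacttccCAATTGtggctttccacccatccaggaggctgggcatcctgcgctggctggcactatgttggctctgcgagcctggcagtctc
Il1rl1: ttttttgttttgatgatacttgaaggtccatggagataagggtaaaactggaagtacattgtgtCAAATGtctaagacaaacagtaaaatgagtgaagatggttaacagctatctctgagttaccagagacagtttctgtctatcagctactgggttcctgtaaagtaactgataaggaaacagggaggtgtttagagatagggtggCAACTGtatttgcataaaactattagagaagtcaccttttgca

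The E-box before Il18rap is CATTTG and starts 30 bases before the start site. In the gap before Il18r1 it is CAATTG, 83 bases before the start site. The window of Il1rl1 holds CAAATG at 186 bases and CAACTG at 43 bases before the start site. These start sites are the ones at the deposited gene starts. RefSeq also lists starts of Il1rl1 at 40439629 and of Il18r1 at 40465621 and 40466006, and which start is used in these cells was not tested. An E-box was present in 66.2% of 32851 mouse promoter windows of 250 bases, so its presence sets none of these genes apart. The Il18rap window held no AP-1 motif (TGANTCA, in 6.7% of windows), no GAS motif (TTCNNNGAA, 7.0%), no TATAAA (12.4%) and no MEF2 motif (2.9%), each searched on both strands. GC content was 42.0% before Il18rap, 50.7% in the gap before Il18r1 and 37.6% before Il1rl1.

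Levels of different genes were set side by side in FPKM (fragments per kilobase, scaled to library size), the deposited values that are scaled to length. In WT the order was led by Il1rl1, the IL-33 receptor chain ST2, at 223 ± 133 FPKM (SD, n = 3). Il33 followed at 34.4 ± 21.1 FPKM, the IL-1 receptor chain Il1r1 at 16.7 ± 1.61 FPKM, the IL-36 receptor chain Il1rl2 at 6.88 ± 1.25 FPKM and Il1rap at 3.32 ± 0.591 FPKM (SD, n = 3 for each). Each of these 5 genes was separated from the next in the order, with no overlap of the 3 libraries.

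The lower end of the order in WT held Il18 at 1.47 ± 0.597 FPKM, Il18rap at 1.30 ± 0.495 FPKM and the decoy receptor Il1r2 at 1.27 ± 0.875 FPKM (SD, n = 3 for each). These neighbours overlapped and did not differ beyond their spread. Il18r1 was far below them at 0.0432 ± 0.0148 FPKM (SD, n = 3), so that the mean FPKM of the accessory chain Il18rap was 30.1 times that of its own binding chain. This ratio is imprecise, since it rests on 2, 5 and 4 reads of Il18r1 in WT 1 to 3. The mean FPKM of Il1rl1 was in turn 171 times that of Il18rap, and the mean FPKM of Il1rap 2.55 times that of Il18rap.

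In the libraries labelled eIF5A-KO the 5 most abundant genes kept this order, with Il1rl1 at 149 ± 14.1 FPKM, Il33 at 28.7 ± 3.57 FPKM, Il1r1 at 14.7 ± 4.68 FPKM, Il1rl2 at 5.10 ± 1.11 FPKM and Il1rap at 3.31 ± 0.172 FPKM (SD, n = 3 for each). Below them, Il18 at 0.876 ± 0.214 FPKM and Il1r2 at 0.714 ± 0.334 FPKM overlapped. Il18rap, at 0.168 ± 0.0241 FPKM (SD, n = 3), was separated from both of them there and took rank 8 of 9, where it had rank 7 in WT. Without WT 3 its rank in WT was 8 as well.

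**Figure D1:**
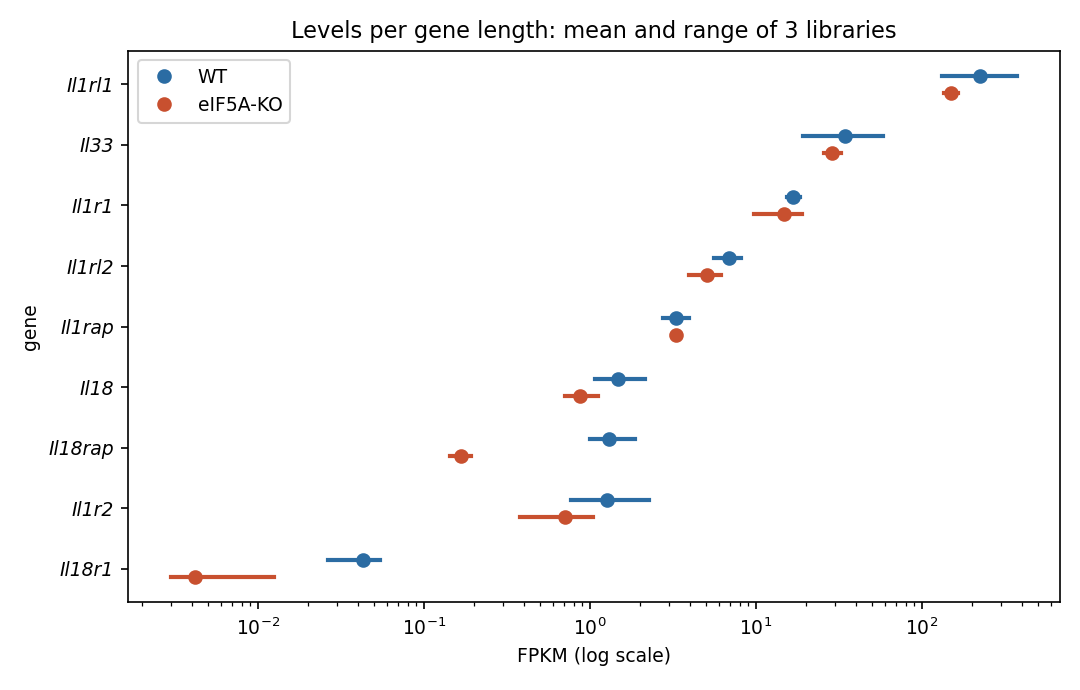
FPKM of the 9 genes on a log axis, in WT and in the libraries labelled eIF5A-KO, with points for the group means and bars from the lowest to the highest library. Il1rl1 is highest in both groups, and Il18rap stands beside Il18 and Il1r2 in WT but below them in the libraries labelled eIF5A-KO. A bar whose lowest library had a value of 0 starts near the lower edge of the axis.

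Il18rap was counted 106, 241 and 119 times in WT 1 to 3 and 16, 22 and 20 times in the libraries labelled eIF5A-KO 1 to 3. In CPM these were 6.85, 12.8 and 7.03 in WT and 0.979, 1.30 and 1.13 in the libraries labelled eIF5A-KO. The groups did not overlap, since the lowest WT library stood 5.26 times above the highest library labelled eIF5A-KO. Within a group the highest library exceeded the lowest 1.87 times in WT, where WT 2 was high, and 1.33 times in the libraries labelled eIF5A-KO.

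The mean level of Il18rap was 8.89 ± 3.37 CPM in WT and 1.14 ± 0.162 CPM in the libraries labelled eIF5A-KO (SD, n = 3 for each), a 7.81-fold lower mean. On the log2 scale the fitted difference was -2.96 (SE 0.35, interval at 95% from -3.73 to -2.18). From counting alone, the interval for the WT library with the fewest reads was 5.61 to 8.29 CPM, and for the highest library labelled eIF5A-KO it was 0.816 to 1.97 CPM (exact Poisson intervals at 95%). These intervals cover counting error only and leave out the spread between libraries. They treat each read as a separate molecule, which cannot be checked because the reads carry no molecular identifiers.

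Il18rap was selected by an adjusted p of 0.0486 in edgeR's quasi-likelihood test, at a threshold of 0.05. Only 3 of the 14679 genes tested passed it, or 0.0204%, and the other two, Myh11 and Lamb3, had the same adjusted p of 0.0486. The nearest gene outside the threshold, Gm9625, had an adjusted p of 0.0768. By the criterion of a fold change over 2 with an unadjusted p under 0.05, 1.85% of tested genes passed, with Il18rap the sole member. The direction of Il18rap, lower under eIF5A-KO, held in all 15 alternative settings, with an adjusted p between 1.06e-13 and 0.379, and it passed the threshold in 4 of them. When library scaling used DESeq2's size factors, the adjusted p was 0.0511. No other annotated gene overlaps Il18rap, and no transcript of another gene matched it over 200 bases at 90% identity. In RNA from a whole culture, fewer cells of a type and less RNA per cell cannot be told apart, here and in every comparison that follows.

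**Figure D2:**
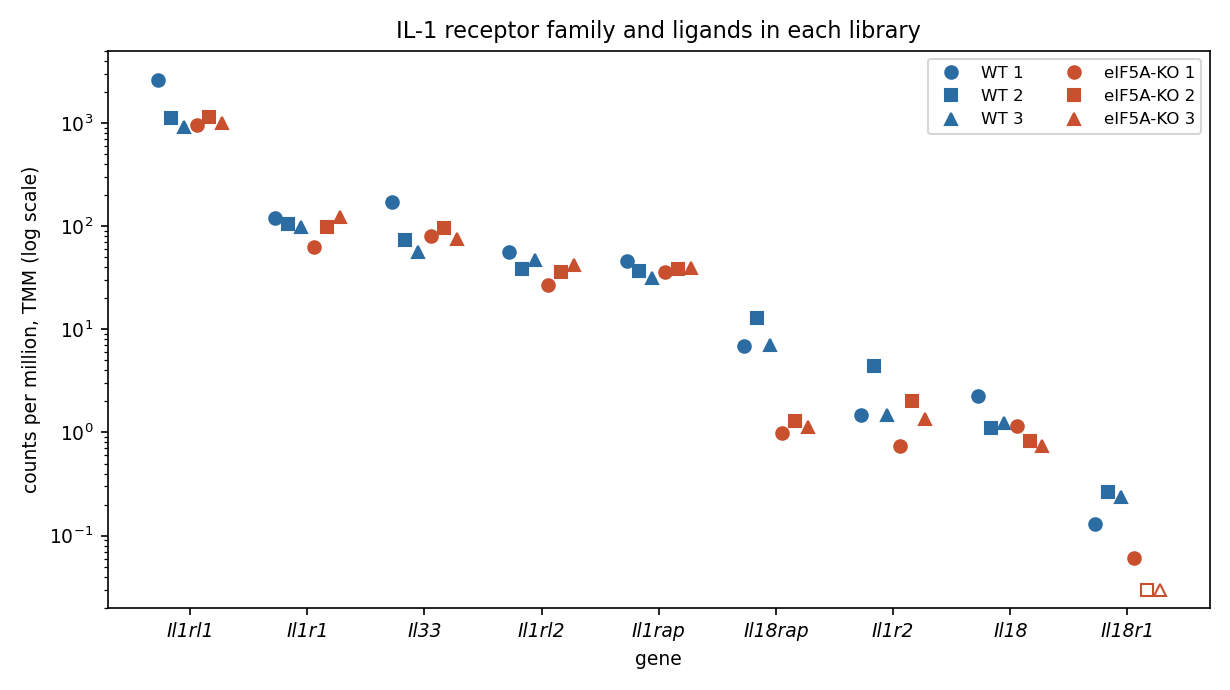
CPM of each of the 9 genes in the 6 libraries, on log axes, with open symbols at the lower edge for libraries with 0 reads. For Il18rap the 3 WT libraries lie between 6.85 and 12.8 CPM and the 3 libraries labelled eIF5A-KO between 0.979 and 1.30 CPM, whereas for each of the other 7 tested genes the groups overlap.

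Il18r1 (ENSMUSG00000026070, chr1:40465552-40500854), the chain that binds IL-18, was at the limit of detection. It had 2, 5 and 4 reads in WT 1 to 3 and 1, 0 and 0 reads in the libraries labelled eIF5A-KO 1 to 3. The groups did not overlap, but they differ by 11 reads against 1 in all. The ratio of libraries labelled eIF5A-KO to WT from these counts was 0.0916, with a counting interval at 95% of 0.00213 to 0.63. Since Il18r1 did not pass the filter, it was tested only in the alternatives without one, with an unadjusted p of 0.0481 in edgeR (adjusted p = 0.776) and of 0.0701 in DESeq2, which gave no adjusted p.

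Il18 (ENSMUSG00000039217), the cytokine that this pair of chains binds, had 35, 21 and 21 reads in WT and 19, 14 and 13 in the libraries labelled eIF5A-KO. Its levels were 2.26, 1.11 and 1.24 CPM in WT and 1.16, 0.829 and 0.737 CPM in the libraries labelled eIF5A-KO. The groups overlapped by a narrow margin, since eIF5A-KO 1 stood above WT 2. The fitted log2 difference was -0.75, with a standard error of 0.42 and a 95% interval from -1.69 to 0.19 (edgeR adjusted p = 0.819), and it was -0.36 without WT 1.

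Set against Il18rap, Il18 gave a ratio of FPKM values of 2.16, 0.571 and 1.16 in WT 1 to 3 and of 7.78, 4.17 and 4.26 in the libraries labelled eIF5A-KO. The ratio of Il18rap to Il1rap, the other accessory chain, was 0.253, 0.579 and 0.373 in WT and 0.0461, 0.057 and 0.0485 in the libraries labelled eIF5A-KO. Both ratios were separate between the groups, and both contain Il18rap, which was selected on this difference. All ratios of FPKM given here were chosen after the values had been seen.

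Il1rap (ENSMUSG00000022514), the accessory chain of the IL-1, IL-33 and IL-36 receptors, was at 45.5, 37.1 and 31.7 CPM in WT and at 35.7, 38.4 and 39.3 CPM in the libraries labelled eIF5A-KO. The libraries labelled eIF5A-KO all lay inside the range of WT. In edgeR the difference was -0.01 on the log2 scale (SE 0.18, 95% interval from -0.42 to 0.40, adjusted p = 0.994), and its sign varied with the setting. An annotated gene, Gm20319, shares exon sequence with Il1rap over 355 bases, and it had at most 1 read in any library.

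Il1rl1 (ENSMUSG00000026069, chr1:40429570-40465415), which binds IL-33 as ST2, was the most abundant gene of the set, with 15508 to 40700 reads per library. Its level was 2630, 1114 and 920 CPM in WT 1 to 3 and 949, 1138 and 1006 CPM in the libraries labelled eIF5A-KO. WT 1 alone was high, and the other 5 libraries lay close together. This gave a log2 difference of -0.59 in edgeR, SE 0.36, with a 95% interval from -1.41 to 0.22 and an adjusted p of 0.858, and without WT 1 it was 0.03.

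Il33 (ENSMUSG00000024810), the ligand of Il1rl1, was at 172, 73.9 and 56.1 CPM in WT and at 80.3, 94.8 and 74.8 CPM in the libraries labelled eIF5A-KO. WT 1 was again the highest library and WT 3 the lowest. The fitted log2 difference was -0.27, with a standard error of 0.36 and a 95% interval from -1.09 to 0.55 (edgeR adjusted p = 0.948), and without WT 1 it was 0.37. The ratio of Il33 to Il1rl1 in FPKM varied little within a group. It was 0.156, 0.158 and 0.146 in WT and 0.202, 0.199 and 0.177 in the libraries labelled eIF5A-KO, which were all above WT.

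WT 1 differed from the other libraries in more than Il1rl1 and Il33. Its share of mitochondrial counts was the highest, and markers of several cell types moved in it. The 8 endothelial markers summed to 1200 CPM in WT 1 and to 2110 to 3230 CPM in the other 5 libraries, and the 11 myogenic markers to 685 CPM against 692 to 1790 CPM. The summed level of 10 markers of fibro-adipogenic progenitors, the mesenchymal cells of muscle, was 3690 CPM in WT 1 and 2860 to 3400 CPM elsewhere, but the list was mixed. The matrix genes Dcn, Lum and Dpt were highest in WT 1, with Dcn, the gene of decorin and the bulk of the excess, at 1542 CPM against 628 to 1041 CPM. The collagen genes Col1a1, Col3a1 and Col15a1 were lowest in WT 1, with Col3a1 at 219 CPM against 298 to 527 CPM, and the remaining 4 markers were neither. The part of these differences in the values of Il1rl1 and Il33 was not tested.

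Il1r1 (ENSMUSG00000026072, chr1:40225080-40317257), the signalling receptor for IL-1, was at 119.5, 105.5 and 98.3 CPM in WT and at 62.4, 97.8 and 121.5 CPM in the libraries labelled eIF5A-KO. The libraries labelled eIF5A-KO spread on both sides of WT, with eIF5A-KO 1 low. In edgeR the difference was -0.20 on the log2 scale (SE 0.24, 95% interval from -0.74 to 0.34, adjusted p = 0.944), and it was 0.03 without eIF5A-KO 1.

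Il1r2 (ENSMUSG00000026073, chr1:40074079-40125231) is a decoy that binds IL-1 without passing on a signal. It was at 1.49, 4.4 and 1.48 CPM in WT and at 0.734, 2.01 and 1.36 CPM in the libraries labelled eIF5A-KO. WT 2 stood apart from the other libraries, which overlapped. This gave a log2 difference of -0.85 in edgeR, SE 0.53, with a 95% interval from -2.05 to 0.36 and an adjusted p of 0.863 and -0.11 without WT 2. In FPKM, Il1r1 exceeded the decoy 7.19 to 24.1 times in WT and 14.6 to 26.8 times in the libraries labelled eIF5A-KO.

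Il1rl2 (ENSMUSG00000070942, chr1:40324610-40367562), the chain that binds the IL-36 cytokines, was at 56.2, 38.8 and 47.3 CPM in WT and at 27.0, 35.8 and 42.0 CPM in the libraries labelled eIF5A-KO. Only eIF5A-KO 3 reached into the range of WT, above WT 2. The fitted log2 difference was -0.44, with a standard error of 0.22 and a 95% interval from -0.93 to 0.05 (edgeR adjusted p = 0.802), with an unadjusted p of 0.0737. With 1 library left out the difference ran from -0.59 to -0.28, and the unadjusted p was 0.0291 without WT 2 and 0.0375 without eIF5A-KO 3.

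**Figure D3:**
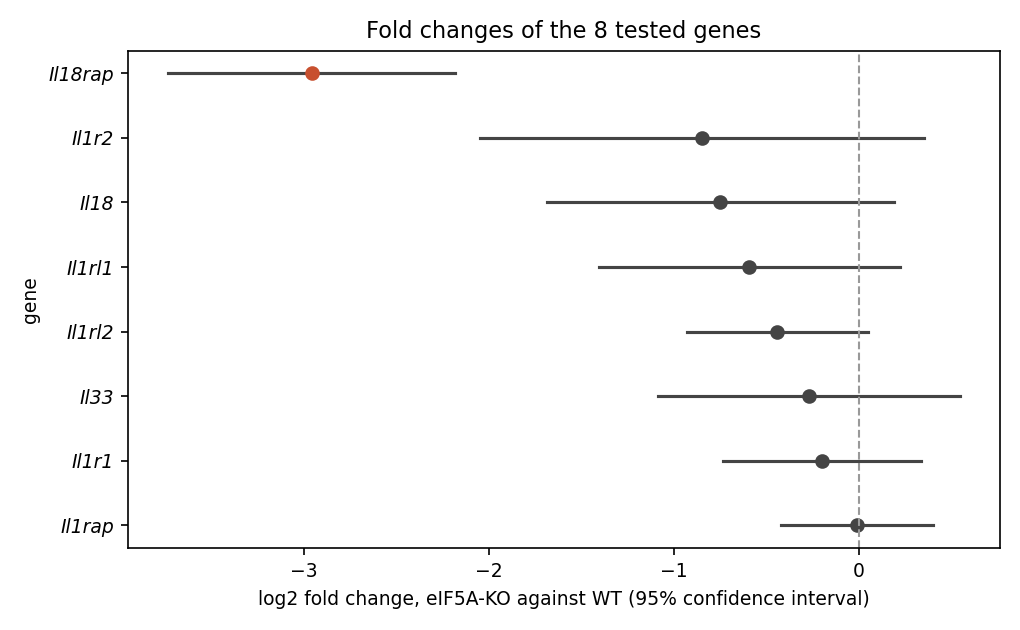
Log2 fold change (libraries labelled eIF5A-KO minus WT) of the 8 tested genes with 95% confidence intervals from edgeR. Il18rap, at -2.96, lies apart from the other 7 genes, whose estimates run from -0.85 to -0.01 with intervals that all include 0.

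Among the 8 tested genes, 1 passed the adjusted threshold, Il18rap itself, and nothing is read from that count because it was the ground for its selection. All 8 estimates were below 0, with a median of -0.52, beside -0.01 over all tested genes. The sign of 4 of them, Il1rl1, Il33, Il1r1 and Il1rap, turned when a single library was left out. An unadjusted p under 0.05 with a lower level was found for 1 of the 8, Il18rap, against 4.02% of all tested genes, and with a higher level for none of them, against 2.74%. That count of 1 became 2 without WT 2, without WT 3 or without eIF5A-KO 3. Without a filter it was 4 of the 9 members, Il18rap, Il1rl1, Il1r2 and Il18r1, beside 6.32% of all genes in that setting. Libraries that did not overlap, with the libraries labelled eIF5A-KO lower, were also found for 1 of the 8, Il18rap, against 6.83% of tested genes, and higher for none, against 5.68%.

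The position of the genes was not used to choose them, so the values of their neighbours were read as well. Within 0.5 Mb of Il18rap the table lists 21 genes, of which 18 had a read and 10 were tested, 5 members and 5 others. Map4k4, a kinase gene before the cluster, differed by 0.01 on the log2 scale (edgeR adjusted p = 0.996), with its sign changing between settings. Slc9a4, a sodium/proton exchanger gene that follows Il18rap directly among the tested genes, had 8, 18 and 10 reads in WT and 10, 8 and 15 in the libraries labelled eIF5A-KO. These overlapped, and the log2 difference was -0.10 (edgeR adjusted p = 0.986), above 0 without WT 2 or without eIF5A-KO 2.

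Slc9a2, a related exchanger gene at chr1:40680574-40769273, had 60, 120 and 61 reads in WT and 47, 19 and 20 in the libraries labelled eIF5A-KO. The groups did not overlap. Its log2 difference was -1.44 (standard error 0.44, unadjusted p = 0.00874, adjusted p = 0.495 in edgeR), with an adjusted p between 0.0161 and 0.961 over the alternatives.

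Mfsd9, a transporter-like gene on the minus strand at chr1:40772038-40790687, had 17, 34 and 13 reads in WT and 7, 9 and 10 in the libraries labelled eIF5A-KO. These groups did not overlap either, with a log2 fold change of -1.26 (standard error 0.45, unadjusted p = 0.0203, adjusted p = 0.584 in edgeR). Antisense genes overlap Slc9a2 and Mfsd9, and the counting is not stated to use strand. The antisense genes themselves had 3 reads or fewer in each library. How reads in shared stretches were assigned is not stated, so these counts do not show whether the overlap affects Slc9a2 or Mfsd9. Tmem182, a muscle transmembrane protein gene farther along, had 54, 137 and 84 reads in WT and 93, 59 and 58 in the libraries labelled eIF5A-KO, with a log2 difference of -0.34 (edgeR adjusted p = 0.927) and overlapping groups, and the difference was -0.03 without WT 2. For scale beside Slc9a2 and Mfsd9, 4.02% of all tested genes were lower at an unadjusted p under 0.05 and 6.83% were lower with no overlap. Of the 10 tested genes of the stretch, 9 had an estimate below 0, beside 7582 of all 14679 tested genes, and the 5 members among them were already counted above. Il18rap, selected on this ground, alone passed the adjusted threshold, which 0.0204% of all tested genes passed.

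**Figure D4:**
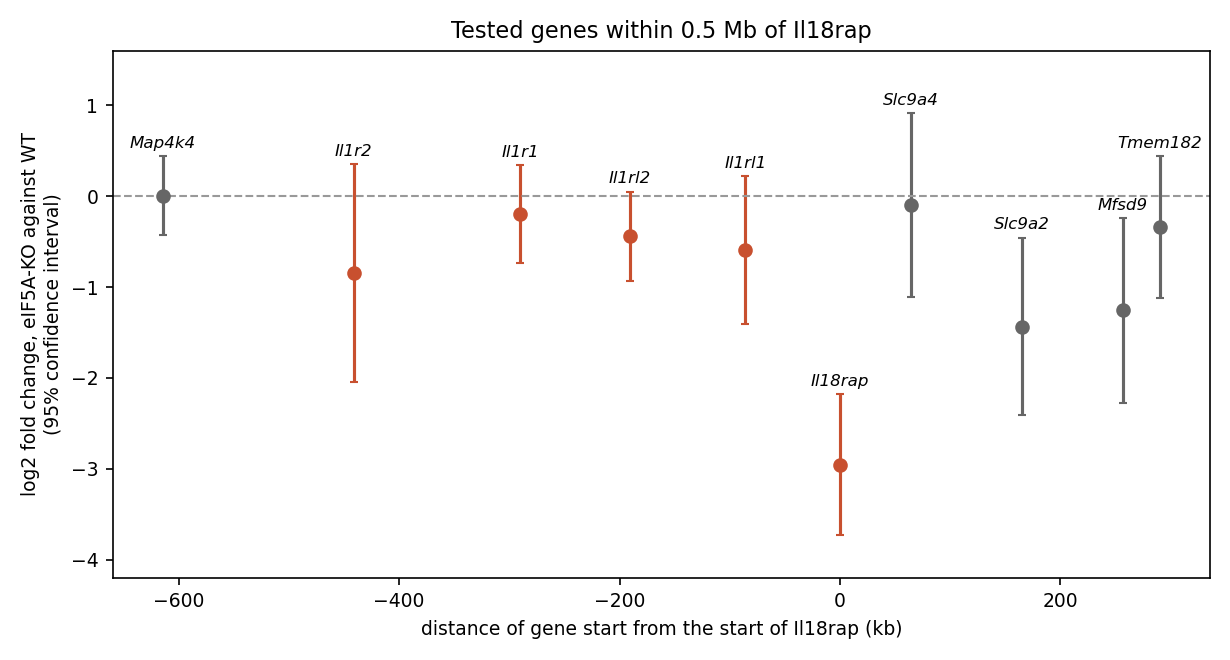
Log2 fold change of the 10 tested genes within 0.5 Mb of Il18rap, with 95% confidence intervals, against the distance of each gene start from the start of Il18rap in kb (a gene counts where any part of it lies within the window). Orange marks the family members, and Il18rap at 0 kb is the lowest point, with Slc9a2 and Mfsd9 the next lowest at -1.44 and -1.26.

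The 5 genes whose profiles over the 6 libraries were most like that of Il18rap were Mab21l3, E2f2, Rbm24, Dmp1 and Lamb3. Likeness was the root mean square difference of log2(CPM + 0.5) after each profile was centred on its own mean, over 13609 candidate genes, and it was 0.300 for Mab21l3, 0.310 for E2f2, 0.334 for Rbm24, 0.355 for Dmp1 and 0.358 for Lamb3. Since Il18rap differs mostly between the groups, genes found in this way differ between them too, and their values are a description.

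Rbm24, an RNA-binding protein of muscle differentiation, was at 11.9, 35.6 and 18.4 CPM in WT and at 3.24, 2.25 and 2.32 CPM in the libraries labelled eIF5A-KO. E2f2, a transcription factor of the cell cycle, was at 16.5, 43.8 and 27.4 CPM in WT and at 6.18, 5.33 and 3.91 CPM in the libraries labelled eIF5A-KO. Lamb3, a laminin chain, was at 4.27, 6.52 and 5.85 CPM in WT and at 0.673, 0.237 and 0.397 CPM in the libraries labelled eIF5A-KO. In all 3, as in Il18rap, WT 2 was the highest library and the groups did not overlap.

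Mab21l3 was at 3.94, 5.78 and 3.43 CPM in WT and at 0.857, 0.533 and 0.454 CPM in the libraries labelled eIF5A-KO. Dmp1, a matrix phosphoprotein best known from bone, was at 3.49, 14.1 and 6.02 CPM in WT and at 0.857, 0.711 and 1.19 CPM in the libraries labelled eIF5A-KO. WT 2 was the highest library for these genes too. The other members were much less like Il18rap: Il1r2 came nearest, at 0.98 and rank 369 of the 13609, and Il33 was farthest among them, at 1.34 and rank 8704.

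**Figure D5:**
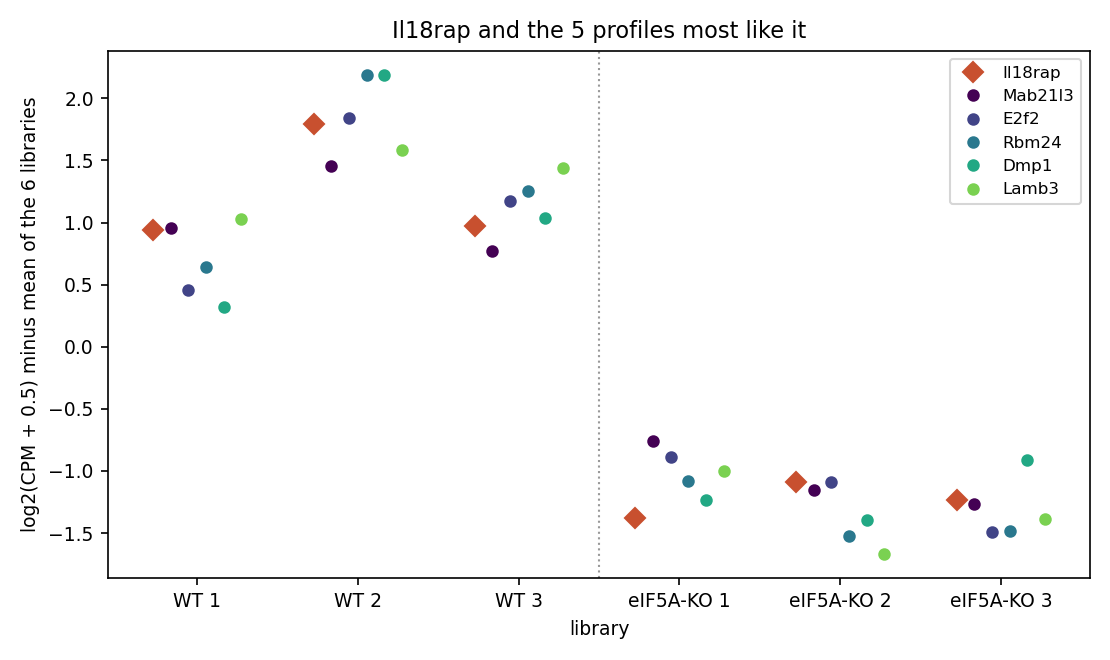
Centred log2(CPM + 0.5) of Il18rap (diamonds) and of the 5 genes most like it, in each of the 6 libraries. All 6 genes are above 0 in the 3 WT libraries, highest in WT 2, and below 0 in the 3 libraries labelled eIF5A-KO.

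The rest of the pathway was read from lists of genes. Of 9 further ligands and inhibitors of the family, 5 had a read and 2 were tested, neither of which passed the test. Il1rn, the IL-1 receptor antagonist, differed by -0.32 on the log2 scale (edgeR adjusted p = 0.952), and Il18bp, the soluble inhibitor of IL-18, by -0.19 (adjusted p = 0.973), with a median of -0.26. The value of Il1rn ran from -0.79 without eIF5A-KO 1 to -0.0015 without eIF5A-KO 3. Il18bp was at 4.39, 4.99 and 6.50 CPM in WT and at 3.12, 2.96 and 7.82 CPM in the libraries labelled eIF5A-KO, which overlapped. Il1a, Il1b and Il1f9 had at most 21 reads in a library and were not tested.

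Of 3 further receptors of the family, Il1rapl1 and Il1rapl2 had no read. Sigirr, a receptor that dampens signalling through TIR domains, was at 2.91, 4.19 and 5.02 CPM in WT and at 6.85, 5.51 and 6.24 CPM in the libraries labelled eIF5A-KO. The groups did not overlap, with the libraries labelled eIF5A-KO higher. In edgeR the log2 difference was 0.61, with an unadjusted p of 0.0509 and an adjusted p of 0.738, and the unadjusted p was under 0.05 in 7 of 15 alternatives.

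All 21 genes on the list from MyD88 to NF-kB were tested. None passed the adjusted threshold or an unadjusted p under 0.05, with 11 estimates above 0, 10 below and a median of 0.02. Over all pathway lists together, 2 of 55 tested genes had an unadjusted p under 0.05, beside 6.76% of all genes. It was 8 of 56 without WT 1 (10.2% of all genes), 1 of 56 without eIF5A-KO 1 (3.88%) and 7 of 61 without a filter (6.32%). Mapk8, the kinase JNK1, had the smallest unadjusted p, 0.0633, at a log2 difference of -0.39 (edgeR adjusted p = 0.791), and its unadjusted p was 0.048 without WT 2 and 0.0346 without eIF5A-KO 3. Next came Map3k7, the kinase TAK1, at -0.27 (adjusted p = 0.861). The adaptor Myd88 was at 67.0, 59.7 and 77.3 CPM in WT and at 74.7, 80.2 and 81.0 CPM in the libraries labelled eIF5A-KO, which overlapped.

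On the list of cytokine processing and release, 10 of 12 genes were tested and none had an unadjusted p under 0.05, with 8 estimates above 0 and a median of 0.12. Capn1, a calpain protease, differed by 0.25 on the log2 scale (edgeR adjusted p = 0.882), and Gsdme, a pore-forming gasdermin, by -0.27 (adjusted p = 0.884), or by -0.10 without WT 1. Casp1, the protease that matures IL-18, was at 2.52, 1.70 and 2.89 CPM in WT and at 2.02, 2.37 and 3.52 CPM in the libraries labelled eIF5A-KO, and the groups overlapped.

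Among 23 genes known to respond to NF-kB, 21 were tested and none passed the adjusted threshold. Their estimates were above 0 for 16 and below 0 for 5, with a median of 0.26 beside -0.01 over all tested genes, and 2 were higher at an unadjusted p under 0.05 with no overlap. Over all tested genes, 2.74% were higher at that p and 5.68% were higher with no overlap. Lif, a cytokine of the IL-6 family, was at 57.3, 55.7 and 35.2 CPM in WT and at 117, 81.0 and 85.0 CPM in the libraries labelled eIF5A-KO. The groups did not overlap, at a log2 fold change of 0.93 (unadjusted p = 0.00314, adjusted p = 0.398 in edgeR). Zc3h12a, the RNase regnase-1 that degrades inflammatory mRNAs, was at 34.1, 47.7 and 44.5 CPM in WT and at 75.4, 57.0 and 54.9 CPM in the libraries labelled eIF5A-KO. It had a log2 fold change of 0.57 (unadjusted p = 0.0199, adjusted p = 0.577 in edgeR), also with no overlap. Ifng, the gene of interferon gamma, had at most 5 reads in any library.

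Il18rap and Il18r1 are best known from lymphocytes, so markers of other cells that the digest could hold were read beside Il18rap. Of 20 markers of T and NK cells, 13 had a read, and Cd3d, Cd3g, Ncr1, Klrd1, Klrk1, Gzma and Gzmb had none in any library. The list summed to 1.62 to 5.57 CPM in WT and to 1.72 to 3 CPM in the libraries labelled eIF5A-KO, ranges that overlap, with WT 2 the highest library.

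All 8 mast cell markers had a read, and their sum, most of it Kit, was 45.5 to 104 CPM in WT and 59.1 to 81.6 CPM in the libraries labelled eIF5A-KO. Of the 6 tested, 3 were lower in the libraries labelled eIF5A-KO at an unadjusted p under 0.05 with no overlap, and none at the adjusted threshold. Over all tested genes, 4.02% were lower at an unadjusted p under 0.05 and 6.83% were lower with no overlap. Among the 6, 5 estimates were below 0, and that of Hdc, the enzyme that makes histamine, was above it, at 0.53. The 3 were the mast cell proteases Cpa3 (log2 fold change -1.27, adjusted p = 0.555 in edgeR), Mcpt4 (-1.67, adjusted p = 0.477) and Cma1 (-0.96, adjusted p = 0.724). Cpa3 had 15, 18 and 21 reads in WT and 8, 9 and 5 in the libraries labelled eIF5A-KO. The part of these cells in the level of Il18rap was not tested.

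The 6 neutrophil markers summed to 2.46, 49.5 and 8.74 CPM in WT and to 1.59, 5.57 and 6.35 CPM in the libraries labelled eIF5A-KO, with WT 2 far above the rest. Of the 2 tested, S100a8 had a log2 fold change of -2.02 (unadjusted p = 0.022, adjusted p = 0.609 in edgeR). S100a9 had one of -2.44 (unadjusted p = 0.0753, adjusted p = 0.805 in edgeR). The groups overlapped for both. S100a8 was at 2.26, 16.3 and 3.25 CPM in WT and at 0.795, 2.66 and 1.93 CPM in the libraries labelled eIF5A-KO. For scale, 4.02% of all tested genes were lower at an unadjusted p under 0.05. WT 2 was also the library with the most Il18rap, Il1r2 and Il1b reads, and the part of neutrophils in these values was not tested.

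The 11 myogenic markers summed to 685, 1790 and 1260 CPM in WT and to 1230, 896 and 692 CPM in the libraries labelled eIF5A-KO, again with WT 2 the highest. Of the 11 tested, 10 had an estimate below 0, with a median of -0.53, and 2 were lower at an unadjusted p under 0.05. Over all 14679 tested genes, 7582 estimates were below 0, the median was -0.01 and 4.02% were lower at that p. Myog, the factor of early muscle differentiation, was at 14.4, 76.3 and 32.2 CPM in WT and at 8.93, 5.09 and 2.10 CPM in the libraries labelled eIF5A-KO, with no overlap (log2 fold change -2.94, adjusted p = 0.362 in edgeR). WT 2 was highest for Myog as it was for Il18rap. The part of myogenic cells in the level of Il18rap was not tested.

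Markers of the remaining cell types did not separate the groups in their sums. The 10 macrophage markers summed to 56.4 to 131 CPM in WT and to 56 to 165 CPM in the libraries labelled eIF5A-KO. For the 8 endothelial markers, WT 1 at 1200 CPM lay below every other library, and WT 2 and WT 3 lay within the range of the libraries labelled eIF5A-KO. Estimates were above 0 for 9 of 10 macrophage markers (median 0.43), for 8 of 8 endothelial markers (median 0.36) and for 4 of 10 fibro-adipogenic progenitor markers (median -0.12). Each of the 3 lists had 1 marker that was higher at an unadjusted p under 0.05, beside 2.74% of all tested genes, namely Cd68, Emcn and Col1a1, with log2 differences of 0.84, 0.51 and 0.72. None of these markers passed the adjusted threshold.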

How the data were processed

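Total RNA of primary myoblasts was sequenced in 6 libraries at day 2, 3 labelled WT and 3 labelled eIF5A-KO. The authors used an NEBNext Ultra library kit, mapped reads to mm10 with HISAT and deposited raw read counts per gene, and their methods name DEGSeq2 for gene coverage. The HISAT version, the annotation and the counting rules are not given in the sources used here. The authors also deposited FPKM, whose denominators equalled size factor times geometric mean total. All sample columns were used.

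Counts were tested with edgeR 4.0.16 in R 4.3.3 (filterByExpr, TMM factors, quasi-likelihood F test, prior count 2, two-sided), with Benjamini-Hochberg adjustment over 14679 genes and a threshold of 0.05. The biological coefficient of variation was 0.239. The procedure was tested on simulated data with 200 changed genes. At changes of 1, 2 and 3 on the log2 scale, edgeR called 25 of 69, 50 of 60 and 70 of 71 changed genes. It also called 11 unchanged genes, a number that was 19 with the replicate block and 41 with DESeq2. CPM values use TMM factors, and errors are SD unless named otherwise. Total counts of 16281216 to 17734551 set the precision: 3 reads corresponded to 0.159 to 0.194 CPM.

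The members, the lists and the tests were chosen with earlier results of these data known. Named genes were the 9 members, tested genes within 0.5 Mb of Il18rap, the called genes and the 2 with the smallest unadjusted p of each pathway list, the 5 tested genes with a mean of at least 1 CPM and a profile most like Il18rap, and Eif5a. Other genes named with values, such as Myd88, Casp1, Ifng and the cell type markers, were picked after their values were seen.

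Alternatives were DESeq2 size factors, library size alone, no filter, a minimum of 10 counts in each library, the DESeq2 1.42.0 test, limma-voom (limma 3.58.1), limma on log2(FPKM + 1) or log2(FPKM + 0.1), a replicate block and each library left out. Transcript copies were searched with blastn 2.17.0 against GENCODE M21. Promoter sequences are from RefSeq (GRCm38.p6), which matched 9 of 9 members with 14 windows.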

Additional observations from a re-analysis of the deposited data

How the results depend on the processing

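Of 15 alternatives, 4 kept Il18rap past the adjusted threshold. Over all genes, 3 were called with edgeR, TMM factors and its filter. The count was 0 with DESeq2 size factors, library size alone, at least 10 counts in every library, limma-voom, limma on log2(FPKM + 1) or limma on log2(FPKM + 0.1), where 992, 966, 907, 961, 980 and 980 genes had an unadjusted p under 0.05. It was 249 without a filter and 84 with DESeq2. Leaving out 1 library gave 0 to 56 calls, 56 without WT 1 (adjusted p of Il18rap 0.00436), and 585 to 1530 genes passed an unadjusted 0.05. What causes these shifts was not tested. Of the 9 members, 1 was called without a filter, with DESeq2 and with the replicate block, 0 with the other 6 settings and 0 to 1 with 1 library left out. Il18rap had an unadjusted p under 0.05 in 15 of 15, and its log2 fold change ran from -3.10 to -0.96, the latter on log2(FPKM + 1), a scale that understates low genes. Of the pathway lists, 1 gene, Lif (adjusted p = 0.00419), was called without a filter, and Slc9a2 (0.0161) was as well. The rank of Il18rap in WT was 7 to 8 with 1 library left out.

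With the replicate block, 24 genes were called and Il18rap had an adjusted p of 0.00173. The numbers share no stated source: deviations of same-numbered libraries correlated at 0.094, -0.196 and 0.109 across genes, and 1 of 3 WT and 1 of 3 eIF5A-KO libraries correlated best with their own number.

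Signs turned for Il1rap, Map4k4 and other genes. Il1rap was at 0.0023 without a filter, 0.0052 with limma-voom, 0.0063 and 0.011 on log2(FPKM + 1) and log2(FPKM + 0.1), and 0.004 with the replicate block. Map4k4 was at -0.031 with library size alone. With 1 library left out, log2 fold changes ran from -0.86 to 0.028 for Il1rl1, -0.12 to 0.14 for Il1rap, -0.56 to 0.37 for Il33, -0.42 to 0.034 for Il1r1, -0.094 to 0.12 for Map4k4, -0.35 to 0.22 for Slc9a4, -0.80 to 0.057 for Il18bp and -0.13 to 0.23 for Eif5a. Depth limits Il18r1, Il18, Il1r2 and Slc9a4, which had fewer than 100 reads in each library.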
